A study of Saccharomyces cerevisiae with 7 samples.

Results

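RNA polymerase II is the enzyme that transcribes protein-coding genes, and the genes described here encode its subunits. The listed genes RPO21, RPB2, RPB3, RPB4, RPB5, RPB7, RPB8, RPB9, RPB10 and RPB11 were found by symbol, and all 10 matched a row among the 5732 genes of the deposited table. RPO26 and RPC10, which encode the remaining subunits of the enzyme, are not in that list and are given beside it where they bear on a result. All 10 listed genes passed the filter on low values that was used for counts over all genes.

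The study measured nascent RNA in Saccharomyces cerevisiae strain DPY1283, with genotype Hsf1-AA, Rpb3-FLAG. AA stands for anchor-away, in which rapamycin draws a tagged protein out of the nucleus, here the heat shock transcription factor Hsf1. Cells at 39 °C with 1 µM rapamycin, at 39 °C without it, at 30 °C with 1 µM rapamycin and at 30 °C without it made up the 4 conditions, with 1 sample each. Both alleles were present in every condition, so no comparison separates the action of Hsf1 removal from other actions of rapamycin, and the product of RPB3 itself carried the tag. Times at 39 °C and in rapamycin are not given for these samples in the sources used here. The series also has 3 samples of Hsf1 binding, not used here.

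The enzyme is built on a core of the large subunits Rpo21 and Rpb2, which form the active centre, and an assembly platform of Rpb3 and Rpb11, the counterparts of the bacterial alpha subunits. Rpb5, Rpo26, Rpb8, Rpb10 and Rpc10 are shared with RNA polymerases I and III, which make ribosomal RNA, transfer RNA and other small RNAs. Rpb4 and Rpb7 form a stalk, and Rpb9 contributes to start site choice and fidelity. In yeast, heat shock is known to lower transcription of genes for making ribosomes and to raise that of chaperone genes.

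Values are the authors' average normalized read counts per gene, 1 column per condition, and column totals ran from 369160 to 433510. The spacing of low values fitted averages over 2 libraries, which together held an estimated 506000 to 1170000 reads per column. Their separate values are not recoverable, hence no replicate spread and no test can be given, and all intervals are 95% intervals that cover counting error only. Ratios are log2 of (value + 2.851) between conditions, a scale that understates differences of genes with low values, and a gene counts as higher or lower at 2-fold or more. The heat shock gene HSP82 had 123 normalized reads at 39 °C with rapamycin and 3714 at 39 °C without it, against 8.90 and 92.0 at 30 °C with and without it. The ribosome assembly gene NSR1 had 18.6 and 9.85 at 39 °C with and without rapamycin, against 352.5 and 401 at 30 °C. SSA4, BTN2, HSP12 and ACT1 had heat shock log2 ratios of 6.85, 6.46, 6.44 and 0.56 without rapamycin.

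In heat shock without rapamycin the genes of subunits shared with the other polymerases had the lowest ratios of the set. In this comparison 4 of the 10 listed genes were at least 2-fold lower at 39 °C than at 30 °C, against 17.9% of all 4585 genes kept, and none was 2-fold higher, against 16.1%. The median log2 ratio of the 10 genes was -0.93, and that of all kept genes was 0.01. RPB8, RPB5 and RPB10, the 3 shared members, had the lowest ratios, at -2.30, -2.05 and -1.73. The remaining lower gene was RPB9 at -1.05, and RPB11 lay just short of the 2-fold limit at -0.97. At 1.5-fold 6 of the 10 were lower, against 28.3% of kept genes, with RPB11 and RPO21 added.

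RPB8 (YOR224C, chromosome XV, 760825 to 761265 in RefSeq's R64 assembly), which encodes a small subunit on the rim of the enzyme, had 35.9 normalized reads at 39 °C with rapamycin and 14.9 at 39 °C without it, against 84.8 and 84.5 at 30 °C with and without it. Its heat shock ratio without rapamycin had a counting interval from -2.77 to -1.83. RPB5 (YBR154C, II, 548362 to 549009) encodes a subunit of the lower jaw that holds downstream DNA. It had 24.9 and 11.2 at 39 °C with and without rapamycin, against 56.6 and 55.3 at 30 °C. In both genes the 39 °C counting intervals lay below the 30 °C ones, and the lower of the 39 °C values was the one without rapamycin.

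RPB10 (YOR210W, XV, 738320 to 738532) encodes a zinc-binding subunit that joins the assembly platform. Its values were 14.2 at 39 °C with rapamycin and 8.32 at 39 °C without it, against 34.1 and 34.3 at 30 °C with and without it. The 39 °C values rested on the equivalent of 17.4 and 16.5 reads, so their intervals, 8.30 to 22.5 and 4.80 to 13.4, overlapped each other but not those at 30 °C.

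The shared subunits outside the list followed the same direction. RPO26 (YPR187W, XVI), whose product supports assembly of the enzyme, had 18.95 and 7.43 normalized reads at 39 °C with and without rapamycin, against 63.1 and 74.4 at 30 °C, and its heat shock ratio without rapamycin was -2.91. RPC10 (YHR143W-A, VIII), which encodes another zinc-binding subunit of the platform, had 5.245 and 4.305 at 39 °C with and without rapamycin, against 16.1 and 20.2 at 30 °C, with a ratio of -1.69. RPC10 was under the filter on low values.

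**Figure D1:**
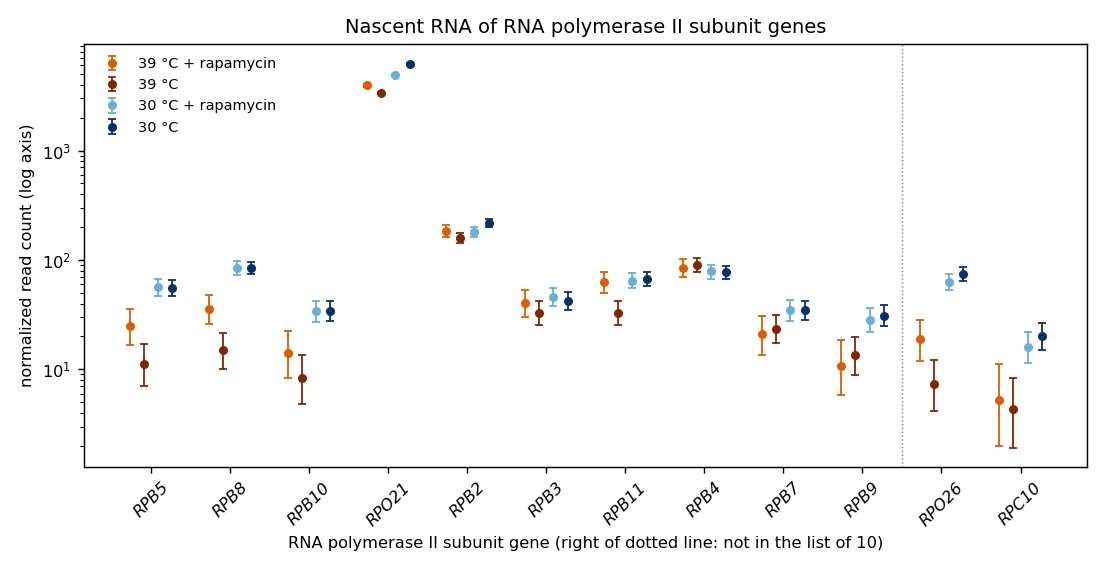
Normalized read count (log axis) of the 10 listed subunit genes and, right of the dotted line, RPO26 and RPC10, with 1 point per condition and 95% counting intervals. The 39 °C intervals of RPB5, RPB8, RPB9, RPB10, RPO21, RPO26 and RPC10 lie below their 30 °C intervals. RPB4 stays between 77.5 and 89.9, and RPO21 lies between 3364 and 6186.

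Without rapamycin, genes of subunits found only in RNA polymerase II differed less between the temperatures than those of shared subunits. RPO21 (YDL140C, IV, 205360 to 210561), which encodes the largest subunit with the C-terminal repeat domain, had 3957 normalized reads at 39 °C with rapamycin and 3364 at 39 °C without it, against 4938 and 6186 at 30 °C with and without it. Its heat shock log2 ratio without rapamycin was -0.88, and its 39 °C counting intervals also lay below the 30 °C ones. RPB2 (YOR151C, XV, 612997 to 616671), for the second largest subunit, had 185 and 159 at 39 °C with and without rapamycin, against 181 and 217 at 30 °C, and a ratio of -0.44. Both large subunit genes had their highest value at 30 °C without rapamycin and their lowest at 39 °C without it.

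RPB3 (YIL021W, IX, 312905 to 313861), the gene of the tagged subunit, had 40.75 and 32.9 normalized reads at 39 °C with and without rapamycin, against 46.0 and 42.0 at 30 °C. All 4 of its counting intervals overlapped, and its heat shock ratio without rapamycin was -0.33 with an interval from -0.73 to 0.08. RPB11 (YOL005C, XV, 315813 to 316175), whose product pairs with Rpb3, had 62.75 and 32.8 at 39 °C with and without rapamycin, against 64.9 and 67.2 at 30 °C. Here the value at 39 °C without rapamycin stood apart from the other 3 conditions, which overlapped within counting error. For the genes RPB3 and RPB11 the heat shock ratios without rapamycin were thus -0.33 and -0.97, with intervals that overlap from -0.73 to -0.59.

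The stalk genes and RPB9 completed the set. RPB4 (YJL140W, X, 150961 to 151626) had 84.9 and 89.9 normalized reads at 39 °C with and without rapamycin, against 78.6 and 77.5 at 30 °C. It was the single listed gene with a heat shock ratio above 0, at 0.21, with an interval from -0.07 to 0.49. RPB7 (YDR404C, IV, 1276654 to 1277169), for its stalk partner, had 20.98 and 23.6 at 39 °C with and without rapamycin, against 34.6 and 34.7 at 30 °C, a ratio of -0.50. RPB9 (YGL070C, VII, 374459 to 374827) had 10.8 and 13.5 at 39 °C with and without rapamycin, against 28.4 and 31.05 at 30 °C. As in RPB8, RPB5 and RPB10, the 39 °C counting intervals, 5.82 to 18.4 and 8.89 to 19.7, lay below those at 30 °C. RPB9 had the lowest ratio of the Pol II-specific genes in both heat shock comparisons, within counting error of RPB11 without rapamycin and of RPB7 with it.

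By sharing, then, the 5 shared genes had heat shock ratios without rapamycin from -2.91 to -1.69, with a median of -2.05, and the 7 Pol II-specific genes from -1.05 to 0.21, with a median of -0.50. These ranges did not overlap, although the counting intervals of the nearest genes, RPC10 at -2.36 to -1.01 and RPB9 at -1.58 to -0.52, did. The grouping follows the known composition of the polymerases and was applied with the values known. No replicate test of the difference was possible.

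With rapamycin present, heat shock was measured in columns that the first comparison did not use. Of the 10 listed genes, 4 were again at least 2-fold lower at 39 °C than at 30 °C, against 12.8% of kept genes, and none was 2-fold higher, against 12.3%. The 4 were RPB9 at -1.19, RPB8 at -1.18, RPB10 at -1.12 and RPB5 at -1.10. They lay close to the 2-fold limit, and with a pseudocount of 0.5 of the median value none of the 10 passed it. At 1.5-fold 5 of the 10 were lower, against 23.9% of kept genes. The 5 shared genes ranged from -1.60 to -1.10, and the 7 Pol II-specific genes from -1.19 to 0.11. These ranges overlapped, since RPB9 lay below the shared RPB8, RPB10 and RPB5, within counting error. RPB7 followed at -0.65 and RPO21 at -0.32. RPB3, RPB11, RPB2 and RPB4 had ratios of -0.16, -0.05, 0.03 and 0.11, all with counting intervals that include 0.

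Summed over genes, the 5 shared genes held 99.1 normalized reads at 39 °C against 255 at 30 °C with rapamycin, or 38.9%. Without rapamycin they held 46.2 at 39 °C against 269 at 30 °C, or 17.2%. The 6 Pol II-specific genes other than RPO21 held 405 at 39 °C against 433 at 30 °C with rapamycin, or 93.5%, and 352 against 469 without it, or 75.0%. RPO21 was left out of this sum because it outweighs all other genes in it. RPB2 and RPB4, at 185 and 84.9 at 39 °C with rapamycin, still made up most of the sum. Among these 6 genes, 39 °C over 30 °C ran from 0.38 in RPB9 to 1.08 in RPB4 with rapamycin. Without it, the range was from 0.44 in RPB9 to 1.16 in RPB4. With RPO21, the 7 Pol II-specific genes were at 81.2% with rapamycin and 55.8% without it.

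**Figure D2:**
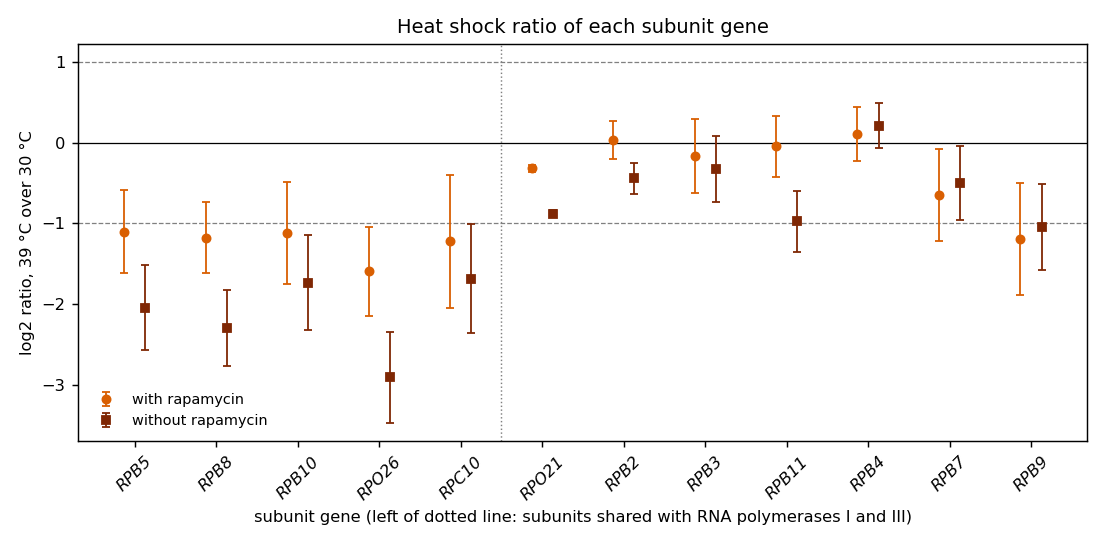
Log2 ratio of 39 °C over 30 °C for each subunit gene, with rapamycin (circles) and without it (squares); bars are 95% counting intervals and dashed lines mark 2-fold. The shared subunits left of the dotted line lie between -2.91 and -1.10, and the Pol II-specific ones between -1.19 and 0.21.

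Rapamycin at 30 °C left the subunit genes close to their level without it. None of the 10 was 2-fold lower, against 0.371% of kept genes, or 2-fold higher, against 0.0436%, and all 10 lay within 1.5-fold, as did 97.0% of kept genes. The median ratio was -0.01, and turned to 0.03 when columns were scaled to equal totals. RPO21 at -0.32 and RPB2 at -0.26 were the only listed genes whose counting interval did not include 0. The share of all kept genes with such intervals is not given here. RPB3 was at 0.12, RPB9 at -0.12, and the other 6 lay between -0.05 and 0.03. For RPO21 the counting interval, -0.36 to -0.29, is narrow because of its many reads, and it says nothing of the spread between cultures.

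During heat shock several subunit genes had higher values with rapamycin than without it. Of the 10 listed genes, 1 was at least 2-fold higher than at 39 °C without rapamycin, against 5.37% of kept genes, and none was 2-fold lower, against 2.88%. At 1.5-fold the higher genes were 4, against 15.6% of kept genes. These were RPB8 at 1.12, RPB5 at 0.98, RPB11 at 0.88 and RPB10 at 0.61, the last with an interval from -0.16 to 1.37. RPO26, outside the list, was at 1.08, and RPC10 at 0.18. RPB3, RPO21 and RPB2 had 0.28, 0.23 and 0.21, and RPB4, RPB7 and RPB9 had -0.08, -0.15 and -0.26. This comparison and the first one share the column of 39 °C without rapamycin, in which RPB5, RPB8, RPB10 and RPB11 each had their lowest value, so the 2 are not independent of each other.

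Gene length moved with the rapamycin ratio at 39 °C. Among kept genes near RPB9 in length, 0.225 to 0.618 kilobases, the median ratio was 0.40, while among an equal number near RPO21, 2.88 to 9.28 kilobases, it was -0.26. Less the median of genes near in length, RPB8 was at 0.78, RPB5 at 0.74, RPB11 at 0.48 and RPB10 at 0.18, and none of the 10 passed 2-fold. RPO21 and RPB2 were then at 0.50 and 0.45, and RPB9 at -0.66. The part of length in the rapamycin ratios was not tested. In heat shock without rapamycin the corresponding medians were -0.19 near RPB9 and 0.19 near RPO21, and RPB8, RPB5 and RPB10 stood at -2.15, -1.95 and -1.52 after subtraction. The number past 2-fold was again 4, but RPB9, at -0.86, was no longer among them and RPO21, at -1.07, was.

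**Figure D3:**
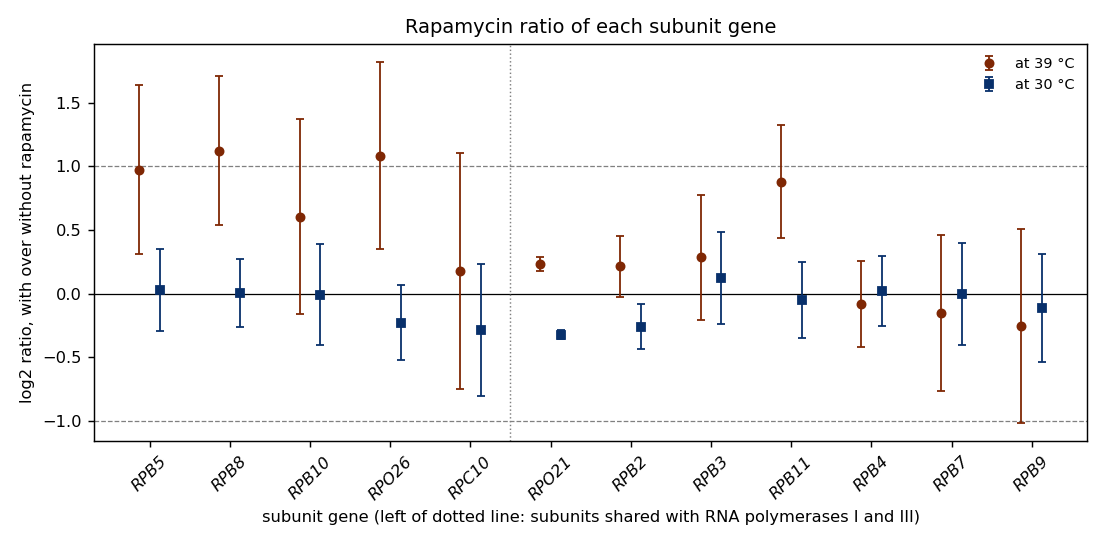
Log2 ratio of samples with over without rapamycin for each subunit gene at 39 °C (circles) and 30 °C (squares); bars are 95% counting intervals and dashed lines mark 2-fold. At 30 °C the listed genes lie between -0.32 and 0.12, and at 39 °C RPB8, RPB5 and RPB11 lie highest among them, at 1.12, 0.98 and 0.88.

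The difference between the rapamycin ratio at 39 °C and that at 30 °C was at least 2-fold upward for 1 of the 10 genes, RPB8 at 1.12, against 6.91% of kept genes, and downward for none, against 3.75%. The upward call was lost with a pseudocount of 0.5 of the median value, at 0.78, and less the median of genes near in length, at 0.75. By that subtraction RPB11 was at 0.48 and RPB10 at 0.15, while RPO21 rose to 0.82, the highest of the 10, and RPB2 to 0.70. RPB7 and RPB9 fell to -0.47 and -0.58. With equal totals 3 genes passed, RPB5 and RPB11 among them. RPB5 at 0.94, RPB11 at 0.93, RPO21 at 0.56 and RPB2 at 0.47 also had counting intervals above 0. RPB10 at 0.61 and RPB3 at 0.16 did not, nor did RPB4, RPB7 and RPB9, which lay between -0.15 and -0.10. How many of all kept genes had intervals that exclude 0 is not given here. The median over the 10 was 0.52, beside 0.01 over kept genes, and 0.32 less the median of genes near in length.

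Levels were compared between genes per kilobase of annotated gene, since the table is not divided by length. RPO21 stood far above every other subunit gene in each condition. It had 761 and 647 normalized reads per kilobase at 39 °C with and without rapamycin, against 949 and 1189 at 30 °C with and without it. That was 15.1, 14.9, 19.3 and 20.1 times RPB2 in the same order. By undivided value it ranked 5, 13, 2 and 1 of all 5732 genes, and per kilobase 58, 83, 43 and 36 of the 5351 genes with a length in RefSeq. Its flanking genes had no such level, with 38.5 to 47.5 normalized reads for BPL1, a biotin ligase gene, and 9.31 to 10.8 for SCM3, a histone chaperone gene, over the 4 conditions. What sets the RPO21 level was not tested.

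The other 9 genes spanned a 4.37-fold range per kilobase at 30 °C without rapamycin. RPB8 at 192, RPB11 at 185 and RPB10 at 161 were highest and could not be told apart by counting error, followed by RPB4 at 116. RPB5 at 85.4, RPB9 at 84.1, RPB7 at 67.3 and RPB2 at 59.0 formed a run in which each overlapped its neighbour, and RPB3 was lowest at 43.9, below the interval of RPB2. The order with rapamycin at 30 °C was the same.

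At 39 °C without rapamycin the range was 7.79-fold and the order differed. RPB4 at 135 was highest after RPO21, followed by RPB11 at 90.3. RPB7, RPB2, RPB10, RPB9, RPB3 and RPB8 lay between 45.8 and 33.8 and each overlapped the next within counting error, as RPB8 did with RPB5, the lowest at 17.3. At 39 °C with rapamycin RPB11 at 173 led, RPB4 at 127 followed, and RPB9 at 29.4 was lowest, a 5.88-fold range. The shared RPB8, at 81.3 with rapamycin and 33.8 without it at 39 °C, ranked below RPB4 there, while at 30 °C it was the highest of the 9.

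In heat shock without rapamycin the genes of the other polymerases were lower at 39 °C throughout. All 5 measured RNA polymerase I subunit genes were at least 2-fold lower without rapamycin, against 17.9% of kept genes, with a median of -3.06. RPA49 at -3.29 and RPA135 at -3.14 were lowest and RPA190 at -2.71 and RPA14 at -1.45 highest. RPC19 at -3.27 and RPC40 at -2.52, which encode the alpha-like pair that polymerases I and III use in place of Rpb3 and Rpb11, were lower as well. All 9 measured RNA polymerase III subunit genes were lower, with a median of -1.97, from RPO31 at -3.21 and RPC53 at -2.94 to RPC25 at -1.47, under the filter, and RET1 at -1.21. The median of the 5 shared subunits, -2.05, lay near that of the polymerase III list. In this comparison all 7 Pol II-specific genes were above the highest gene of each of these lists. In heat shock with rapamycin every gene of these lists was below 0. However, 6 of 9 polymerase III genes were then at least 2-fold lower, against 12.8% of kept genes. There RPB9 at -1.19, RPB7 at -0.65 and RPO21 at -0.32 lay below RPC25 at -0.26, the highest of the polymerase III list. With rapamycin at 39 °C, RPC19 at 1.45, RPC53 at 1.35 and RPO31 at 1.03 were at least 2-fold higher than without it, as were 5.37% of kept genes. Values at 39 °C without rapamycin were 2.14 for RPC19, 3.525 for RPA49 and 4.16 for RPC53, so their ratios rest on few reads. RPA43, RPA12 and RPC17 were not analysed here.

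The general apparatus that works with RNA polymerase II lay closer to the Pol II-specific subunits. Over all kept genes 17.9% were at least 2-fold lower in heat shock without rapamycin and 16.1% higher, beside the counts of each list below. Of 18 general transcription factor genes 2 were 2-fold lower with heat and none higher, with a median of -0.18. These were the TATA-binding protein gene SPT15 at -1.15 and the TFIIH helicase gene RAD3 at -1.09, and TFB1, for another TFIIH subunit, was highest at 0.63. Among 14 TFIID genes none passed 2-fold, the median was -0.53, and TAF9 at -0.99 and TAF11 at -0.91 were lowest. Of 25 Mediator genes 1 was lower and 1 higher, with a median of -0.29. SRB7 at -1.03, under the filter on low values, and SRB2 at -0.99 were lowest, and SSN8, the cyclin C gene of the kinase module, at 1.10 and SSN2, of the same module, at 0.83 were highest.

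None of 13 elongation factor genes passed 2-fold, with a median of -0.25 and the lowest values in SPN1 at -0.78 and CTR9 at -0.70. Genes for kinases and phosphatases of the C-terminal repeat domain had a median of -0.65 with 0 of 7 past 2-fold, and FCP1 at -0.93 and CTK1 at -0.91 were lowest. RTR1 was not analysed here. Of 5 genes linked to removal of stalled polymerase none passed 2-fold, with a median of 0.04. They ran from ELC1 at -0.79, under the filter, to RSP5, a ubiquitin ligase gene, at 0.62.

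Assembly and nuclear import factors had 4 of 7 genes at least 2-fold lower, against 17.9% of kept genes, and a median of -1.22. BUD27 at -2.80 and the GTPase gene GPN3 at -1.91 were lowest. GPN2, for a related GTPase, was at -0.59, and IWR1, whose product is a nuclear import adaptor of RNA polymerase II, was highest at 0.70. In none of these other lists did a gene pass 2-fold with rapamycin at either temperature.

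**Figure D4:**
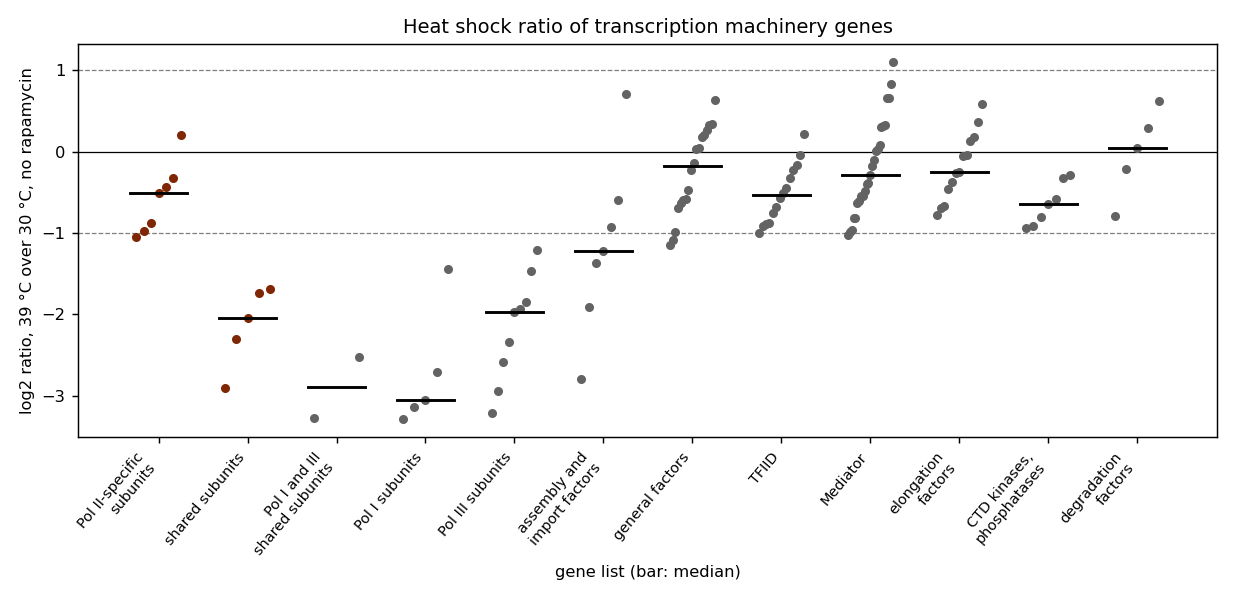
Log2 ratio of 39 °C over 30 °C without rapamycin for each measured gene (points) of the subunit groups and of other transcription gene lists, with the median of each list as a bar and dashed lines at 2-fold. Pol II-specific subunits (median -0.50) sit above shared subunits (-2.05), polymerase I subunits (-3.06) and polymerase III subunits (-1.97).

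On the genome the 12 subunit genes lie on 8 chromosomes, and no RefSeq gene overlaps any of them. RPB4 starts 570 bases from YAK1, a protein kinase gene on the opposite strand. YAK1 had 174 and 246 normalized reads at 39 °C with and without rapamycin, against 27.4 and 28.2 at 30 °C, so that its heat shock ratio without rapamycin was 3.00 where that of RPB4 was 0.21. RPB5 starts 761 bases from CNS1, an Hsp90 cochaperone gene on the opposite strand, whose ratio was -1.56. RPO26 starts 234 bases from PZF1, the gene of a polymerase III initiation factor, whose ratio was -1.08. RPB10, RPB11, RPB7 and RPB9 have divergent neighbours NPT1 at -0.83, SIN3 at 0.58, MRP20 at 0.12 and MNP1 at -0.43. The table also has a row for YGL069C, next to RPB9 by systematic number and with no RefSeq entry, with 34.9 and 15.5 normalized reads at 39 °C with and without rapamycin, against 38.6 and 35.4 at 30 °C. Rows of the same kind next to RPB3 were YIL020C-A, at 3.9 to 7.57 over the conditions, and YIL021C-A, at 7.945 to 12.76. Whether RPB9 or RPB3 shares reads with these rows was not tested, and no source used here gives the strand setting of the counting.

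The kept genes most like the median profile of the 10 genes, by Euclidean distance over the log2 ratios of the other 3 conditions to 30 °C without rapamycin, were MRS6, NCP1, YDR444W, MNL1 and MRP13, at distances of 0.05 to 0.10. In all, 95 kept genes lay within a distance of 0.25, so the named ones do not stand apart. The median profile itself was -0.65 at 39 °C with rapamycin, -0.93 at 39 °C without it and -0.01 at 30 °C with it. For RPB3 alone the nearest were YKL033W-A, SEC22, CUS1, ECM33 and SGV1, at 0.04 to 0.07, with 135 genes within 0.25. Counting standard errors of the single ratios of RPB3 ran from 0.18 to 0.25, so the order among these neighbours is within counting error.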

How the data were processed

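Nascent RNA was measured in 4 conditions. Values are signal values, the authors' average normalized read counts per gene, per the file headers, deposited as 1 column per condition. HTSeq and the build sacCer3 are listed per the submitters' processing notes; aligner, versions, strand setting and scaling method: not given in the sources used here. Values were used as deposited, with 2.851 (0.1 of the median value) added before log2. Genes with a mean at or above 14.442, the 20th percentile, were kept (4585 of 5732). Of low values, 98.6% to 100% fell on sums of 2 steps, against 5.15% to 27.1% by chance. The steps were chosen to fit these same values best, so the 2 shares are not on an equal footing. Counting error derived from these steps was 11.3% to 17.1% of a value at the median gene. The estimated depths and the intervals rest on this reading, and without molecular identifiers reads cannot be taken as independent molecules. Simulated data were made as averages of 2 libraries. They tested recovery of the steps under this reading, not the reading itself. Gene positions and lengths come from RefSeq (R64). With 1 column per condition no test was run.

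Genes named were all members, control genes, the 2 highest and 2 lowest of each list past 1.5-fold in heat shock, list genes past 2-fold with rapamycin, and the 5 nearest in pattern. Neighbouring genes and the split by sharing were chosen after values were seen. Members and lists were chosen with earlier results of these data known. Alternatives varied the pseudocount, filter, scaling, fold and gene length. Python 3.11.15, NumPy, pandas and SciPy 1.17.1 were used.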

Additional observations from a re-analysis of the deposited data

Results flagged for a closer look

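The rapamycin ratio of RPO21 had opposite signs at the 2 temperatures, 0.23 at 39 °C and -0.32 at 30 °C, and neither counting interval included 0. The difference was 0.56 on the log2 scale, and 0.82 less the median of genes near in length. It was not tested, since there are no replicate values, and RPO21 has so many reads that its counting interval says little about the spread between cultures.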

How the results depend on the processing

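No paired analysis was possible because each condition is a single averaged column. With a pseudocount of 0.5 of the median value, 0 of the 10 genes were 2-fold lower in heat shock with rapamycin and 0 were 2-fold higher with rapamycin at 39 °C, and the difference of medians between shared and Pol II-specific subunits in heat shock without rapamycin was -1.03 in place of -1.54; that pseudocount compresses low values by construction. The 4 genes counted lower in each heat shock comparison became 2 with the filter at the 40th percentile, which removes RPB9 and RPB10. The 1 gene higher with rapamycin at 39 °C became 2 with a pseudocount of 0.01 of the median, 2 with equal totals, 4 at 1.5-fold and 0 less the median of genes near in length. For the difference of the rapamycin ratios, a count tried under other settings after seeing the data, the 1 gene past 2-fold became 2 with a pseudocount of 0.01 of the median, 0 with 0.5 of it, 3 with equal totals, 4 at 1.5-fold and 0 less the median of genes near in length. The median of that difference, 0.52, was 0.32 less the median of genes near in length. The other counts of the 10 genes stayed within 1.5 times. The other medians moved by less than the median distance from a single gene's ratio to its counting limit. No interval of a median itself was computed. Equal totals shifted the median of all kept genes to -0.17 in heat shock without rapamycin, -0.10 with it and 0.14 for rapamycin at 39 °C. Of 250 single-gene values under other settings 12 moved beyond their counting interval and 6 changed sign, none of the latter with a ratio beyond its interval. Shared and Pol II-specific ranges stayed apart in heat shock without rapamycin under every pseudocount and scaling tried, most narrowly with 0.5 of the median, at -0.89 and -0.88. In heat shock with rapamycin the ranges overlapped under every one of these settings. The median for rapamycin at 30 °C, -0.01, turned to 0.03 with equal totals and 0.02 less the median of genes near in length. Depth limits the low genes at 39 °C. RPC10 rests there on the equivalent of 6.44 reads with rapamycin and 8.52 without it, RPO26 on 14.7 without it, RPB9 on 13.3 with it, and RPB10 on 17.4 with and 16.5 without it.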
